A study of Mus musculus with 12 samples.

Results

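Transcript levels of 8 genes of the megakaryocyte lineage and its erythroid neighbour were described in bulk RNA-seq of progenitors sorted from female C57Bl/6J mouse marrow. The genes were Pf4, Itga2b, Vwf, Gp1bb, Gp9, Car2, Tfr2 and Nfe2, chosen by name, and each matched 1 of the 38924 Ensembl IDs of the deposited table. The 12 libraries cover lymphoid-primed multipotent progenitors (LMPP), lymphoid-committed common progenitors (CLP) and progenitors of granulocytes and monocytes (GMP), with 4 libraries per type and 2 of them in each of 2 batches named in the sample titles. The mice were wild type and untreated per the labels; all cells were negative for mature lineage markers. The LMPP gate was Sca1+ cKit+ CD150- CD34+ with high Flk2, the CLP gate low Sca1 and low cKit with IL7Ra and Flk2, and the GMP gate Sca1- cKit+ CD150- CD34+ FcgR+. The labels read here give no age for the mice of the bulk libraries and do not say whether libraries came from separate animals. The p-values therefore measure the spread between these libraries, and that spread may be technical. The question was how much of the megakaryocyte programme remained in LMPP.

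Megakaryocytes are the large marrow cells that shed platelets, and they share a bipotent progenitor with red cells. Platelets adhere to damaged vessels when a receptor of glycoproteins Ib, IX and V on their surface binds von Willebrand factor, and they aggregate through an integrin that binds fibrinogen. In mice, LMPP are described as having lost most of the capacity to form megakaryocytes and red cells while keeping lymphoid and granulocyte-monocyte capacity. Stem cells, megakaryocytes and erythroid precursors share a set of transcription factors, among them GATA, TAL and NF-E2 proteins.

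Levels are in TPM, a share of each library's transcripts normalized for transcript length, so levels of different genes can be compared. TPM keeps no read depth, so the counting error of a value cannot be estimated here, and a 0 means only that the gene is listed at 0. The sorted types carried their markers: Dntt, a lymphoid priming gene, was at 485.27 to 698.4 TPM across LMPP libraries, 921.71 to 1848.22 TPM across CLP and 0.31 to 0.97 TPM across GMP. Elane, the neutrophil elastase gene, was at 12.14 to 86.47 TPM across LMPP libraries, 1.79 to 320.13 TPM across CLP and 2855.77 to 4411.03 TPM across GMP. Some libraries stood apart. The summed TPM of 8 late erythroid genes (haemoglobins, Alas2, Slc4a1, Hemgn and Bpgm) reached 28522.79 in the LMPP library of batch 2 replicate 1 and 13584.49 in its CLP counterpart, against 48.68 to 2499.48 in the other 10 libraries; 8 mature neutrophil genes were highest in the same pair. CLP batch 2 replicate 1 also held the highest CLP sums of 6 mast and basophil genes (195.5 TPM) and of 5 GMP markers (1920.32 TPM). In CLP batch 2, Flt3, the gene of the gate protein Flk2, was at 8.91 and 16.98 TPM, while CLP batch 1 held 138.28 and 146.13 TPM. The members' results are therefore also given without these libraries where that matters.

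Values were tested with limma on log2(TPM + 1) with terms for type and batch over all 12 libraries, for 12718 genes that reached 1 TPM in at least 4 libraries. A difference below is a log2 difference on that scale, the first-named type minus the second, which understates changes near 0. Genes were called at a Benjamini-Hochberg adjusted p under 0.05 over all tested genes. Of the 8 members, 7 passed the filter and Gp1bb did not. The filter passed Tfr2 through LMPP and GMP alone, since every CLP library was below 1 TPM. The 3 comparisons share libraries and are not independent of each other. In bulk samples, fewer cells expressing a gene and less RNA per cell cannot be told apart.

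LMPP held more Nfe2, Tfr2, Car2 and Itga2b than CLP, and no member was called lower. The Nfe2 and Tfr2 calls held in every alternative setting of the fit, those of Car2 and Itga2b in 14 and 7 of 25. Against GMP, LMPP held 15.7-fold more Car2 on the tested scale, similar Nfe2, and means of Pf4 and Itga2b that were lower without passing the test. Vwf and Gp9 were low in every type and were called in no comparison, and Gp1bb was at or near 0 throughout. In counts, 4 of the 7 tested members were called higher in LMPP than CLP and 0 lower, where 7.23% of all tested genes were called higher and 2.80% lower; the count lower was also 0 at an unadjusted p under 0.05. For LMPP against GMP, 1 was called higher and 0 lower, beside 21.3% and 7.62% of all tested genes, and 1 (Pf4) was lower at an unadjusted p under 0.05. In CLP against GMP, 1 was higher and 4 were lower, beside 13.9% and 9.96%. Calls in either direction made up 10%, 28.9% and 23.9% of tested genes in the 3 comparisons. In LMPP against CLP, 2 members lay above in every library and 0 below, beside 8.81% and 2.27% of tested genes. In LMPP against GMP, 2 lay above and 1 below, beside 22.7% and 7.76%. In CLP against GMP, 0 lay above and 3 below, beside 11.8% and 9.12%. The members' median log2 difference was 1.66 in LMPP against CLP, 0.41 in LMPP against GMP and -1.55 in CLP against GMP. Over all tested genes the medians were 0.17, 0.24 and 0.09 in the same comparisons. The genes were chosen with earlier results of these data known, so these counts describe the members and are no independent evidence.

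**Figure D1:**
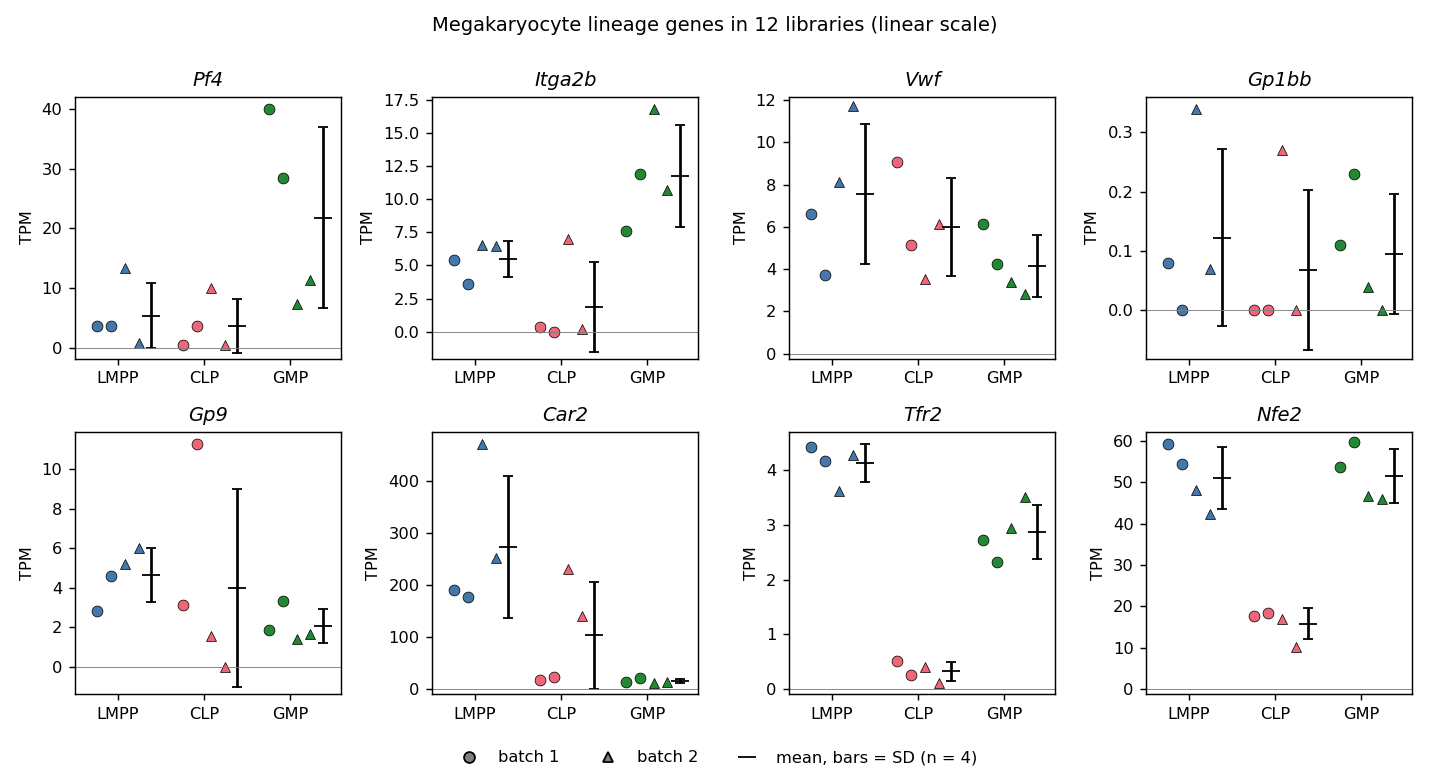
TPM of the 8 genes in each library, on linear axes with a separate scale per gene; circles are batch 1, triangles batch 2, and the bars give the mean and SD of the 4 libraries of a type. Nfe2 and Tfr2 separate LMPP and GMP from CLP in every library, Car2 is high in LMPP and in the CLP libraries of batch 2, and Gp1bb reaches at most 0.34 TPM.

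**Figure D2:**
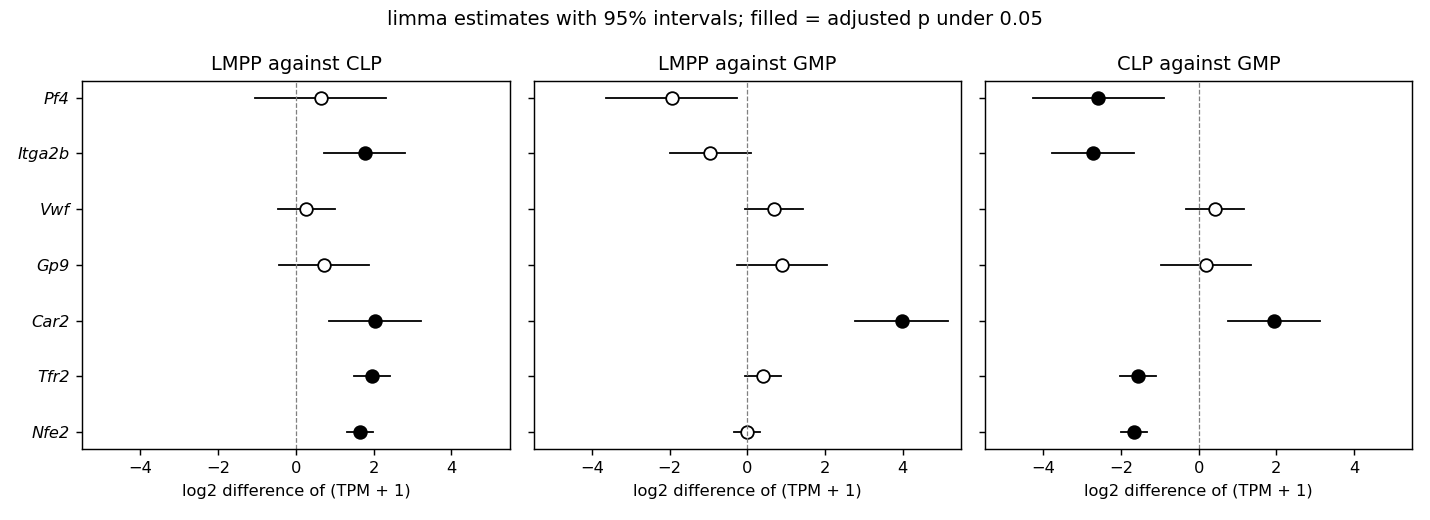
Log2 differences of the 7 tested members from limma, with 95% intervals, for each pair of types (positive means higher in the first-named type). Filled circles passed an adjusted p of 0.05: 4 in LMPP against CLP, 1 in LMPP against GMP and 5 in CLP against GMP.

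Among the megakaryocyte genes proper, Itga2b encodes the alpha chain of the platelet fibrinogen receptor, known as CD41 (chromosome 11, 102453297 to 102470122 on the minus strand in mm10). Values are listed by batch and replicate, the batch 2 libraries being replicates 1 and 3 for LMPP and 1 and 2 for the others. Itga2b stood at 5.42, 3.61, 6.51 and 6.43 TPM in LMPP, at 0.33, 0, 6.97 and 0.17 TPM in CLP and at 7.62, 11.9, 16.82 and 10.66 TPM in GMP. LMPP lay below GMP in all libraries, and 3 of the 4 CLP libraries were near 0 while CLP batch 2 replicate 1 was above every LMPP library. On the test scale Itga2b was higher in LMPP than CLP by 1.76 (SE 0.48, limma adjusted p = 0.0388) and lower in CLP than GMP by a difference of -2.72 (SE 0.48, limma adjusted p = 0.00171). LMPP against GMP gave -0.95 (SE 0.48, limma adjusted p = 0.158), although the libraries did not overlap, as in 7.76% of all tested genes below GMP. The mean LMPP level was 46.7% of the GMP level.

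The Itga2b difference between LMPP and CLP lay close to the threshold. Without CLP batch 2 replicate 1, the difference between LMPP and CLP grew to 2.40 (limma adjusted p = 0.000569) and that between LMPP and GMP, at -0.95, was called (limma adjusted p = 0.0123). The LMPP against CLP call was lost on leaving out any of the other 11 libraries (limma adjusted p 0.0510 to 0.108), and with the replicate number as a block (1.56, limma adjusted p = 0.135). In CLP batch 2 replicate 1 the mast and basophil sum was 195.5 TPM, while the other CLP libraries held 6.12 to 15.92 TPM, and Gata1, a regulator of megakaryocytes, erythroid cells and mast cells, was at 2.2 TPM there and at 0 to 0.43 TPM in the other 3. That library also held 1920.32 TPM of GMP markers, against 158.39 to 250.75 TPM in the other CLP libraries. Its late erythroid sum was 13584.49 TPM, against 48.68 to 2499.48 TPM in the other CLP libraries. The part these markers have in its Itga2b value was not tested.

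Pf4 encodes platelet factor 4, a chemokine of platelet alpha granules (chromosome 5, 90772435 to 90773383 on the plus strand). Its levels were 3.65, 3.67, 13.28 and 0.8 TPM in LMPP libraries, 0.36, 3.62, 9.98 and 0.38 TPM in CLP libraries and 40.01, 28.44, 7.37 and 11.26 TPM in GMP libraries. The highest library of both LMPP and CLP was batch 2 replicate 1, the library rich in late erythroid and neutrophil transcripts, and GMP split by batch. Pf4 was lower in CLP than in GMP, with a difference of -2.59 (SE 0.77, limma adjusted p = 0.0296). LMPP against GMP gave -1.95 (SE 0.77, limma adjusted p = 0.0779) and LMPP against CLP 0.64 (SE 0.77, 95% interval -1.05 to 2.32, limma adjusted p = 0.634). Without the 2 haemoglobin-rich libraries the difference between LMPP and GMP was -2.70 and was called (limma adjusted p = 0.00127). It was also called without LMPP batch 2 replicate 1 (-2.60, limma adjusted p = 0.0255) and without CLP batch 2 replicate 1 (limma adjusted p = 0.0364). In batch 1 alone LMPP against GMP gave -2.90 (limma adjusted p = 0.00866), and in batch 2 alone -0.999 (limma adjusted p = 0.646). The mean Pf4 level of LMPP was 24.6% of that of GMP. The CLP against GMP call ended without any of CLP batch 1 replicate 1, CLP batch 2 replicate 2, GMP batch 1 replicate 1, GMP batch 1 replicate 2 and GMP batch 2 replicate 2 (limma adjusted p 0.0523 to 0.0902).

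Vwf encodes von Willebrand factor, the adhesive protein that tethers platelets, made by megakaryocytes and endothelial cells (chromosome 6, 125546774 to 125686679 on the plus strand). It was found at 6.61, 3.74, 8.11 and 11.72 TPM in LMPP libraries, 9.07, 5.16, 3.55 and 6.13 TPM in CLP libraries and 6.13, 4.25, 3.39 and 2.8 TPM in GMP libraries. The 3 types overlapped throughout. LMPP exceeded GMP by 0.69 (SE 0.34, 95% interval -0.05 to 1.42, limma adjusted p = 0.148) and CLP by 0.26 (95% interval -0.47 to 0.9997, limma adjusted p = 0.654), neither beyond the spread between libraries. Within batches, LMPP against GMP was -0.03 in batch 1 and 1.40 in batch 2; without LMPP batch 1 replicate 2 it was 0.98 and called (limma adjusted p = 0.0385). Endothelial markers differed among themselves. Cdh5 reached at most 0.38 TPM among LMPP libraries, 1.56 TPM among CLP and 0.02 TPM among GMP, and Kdr at most 0.27, 0.22 and 0.01 TPM in the same types. Egfl7 was at 47.1 to 132.45 TPM across LMPP libraries, 14.11 to 129.27 TPM across CLP and 4.97 to 12.37 TPM across GMP. The sum of all 9 listed endothelial genes was 103.63 to 210.4 TPM across LMPP libraries, 56.09 to 197.01 TPM across CLP and 45.14 to 57.31 TPM across GMP, and its part in the Vwf levels was not tested.

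Gp9 and Gp1bb encode subunits of the platelet receptor for von Willebrand factor. Gp9 (chromosome 6, 87778072 to 87779768 on the plus strand) was at 2.83, 4.58, 5.21 and 5.99 TPM in LMPP libraries, 3.11, 11.25, 1.56 and 0 TPM in CLP libraries and 1.85, 3.32, 1.42 and 1.65 TPM in GMP libraries. The CLP libraries spanned the range of the other types, with the highest and the lowest value of the series. LMPP differed from CLP by 0.71 (95% interval -0.45 to 1.87, limma adjusted p = 0.417) and from GMP by 0.89 (95% interval -0.27 to 2.05, limma adjusted p = 0.230), the GMP difference being called with only LMPP and GMP fitted (limma adjusted p = 0.0249). The LMPP against CLP difference was -0.62 in batch 1 and 2.04 in batch 2. Gp1bb (chromosome 16, 18620317 to 18622403 on the minus strand) was at 0.08, 0, 0.34 and 0.07 TPM in LMPP libraries, 0, 0, 0.27 and 0 TPM in CLP libraries and 0.11, 0.23, 0.04 and 0 TPM in GMP libraries, and was not tested. Its highest LMPP and CLP values were again in batch 2 replicate 1. Gp1bb overlaps the neighbouring Sept5 on the same strand, which stood at 5.24 TPM and 2.97 TPM in those libraries and at 0 to 0.67 TPM elsewhere, so the assignment of reads between them is uncertain.

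Promoter sequence was available for 5 of the 8 members in the RefSeq table of the GRCm38.p6 build, and these 5 are shown. No entry was found there for Car2, Vwf or Nfe2. Each line gives the 250 bases before the RefSeq start nearest the gene's annotated start, 5′ to 3′ on the gene's strand. For Itga2b the RefSeq start lies inside the gene span given above, which runs to 102470122, so most of its window lies inside that span too. Capitals mark the letters AGGAAG or CGGAAG on either strand (CTTCCT or CTTCCG), a core that ETS factors such as FLI1 bind.
Itga2b (chr11:102469884-102470133, minus strand): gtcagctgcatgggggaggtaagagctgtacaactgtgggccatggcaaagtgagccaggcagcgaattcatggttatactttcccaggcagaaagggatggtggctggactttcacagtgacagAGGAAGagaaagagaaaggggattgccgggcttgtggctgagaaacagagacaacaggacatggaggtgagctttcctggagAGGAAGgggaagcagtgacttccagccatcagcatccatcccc
Pf4 (chr5:90772185-90772434, plus strand): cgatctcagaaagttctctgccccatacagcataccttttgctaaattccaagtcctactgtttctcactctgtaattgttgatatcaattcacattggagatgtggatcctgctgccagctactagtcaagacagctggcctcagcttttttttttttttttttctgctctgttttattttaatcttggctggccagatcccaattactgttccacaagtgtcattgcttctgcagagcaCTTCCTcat
Gp9 (chr6:87777820-87778069, plus strand): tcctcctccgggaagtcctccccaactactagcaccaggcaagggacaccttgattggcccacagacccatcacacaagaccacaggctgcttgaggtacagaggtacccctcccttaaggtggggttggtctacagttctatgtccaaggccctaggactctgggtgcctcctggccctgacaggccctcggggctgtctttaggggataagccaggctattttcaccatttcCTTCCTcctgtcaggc
Gp1bb (chr16:18622404-18622653, minus strand): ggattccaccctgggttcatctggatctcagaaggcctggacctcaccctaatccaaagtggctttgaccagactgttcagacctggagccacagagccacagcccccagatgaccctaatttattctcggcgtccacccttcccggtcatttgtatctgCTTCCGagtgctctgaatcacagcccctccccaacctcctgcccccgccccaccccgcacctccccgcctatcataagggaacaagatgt
Tfr2 (chr5:137569590-137569839, plus strand): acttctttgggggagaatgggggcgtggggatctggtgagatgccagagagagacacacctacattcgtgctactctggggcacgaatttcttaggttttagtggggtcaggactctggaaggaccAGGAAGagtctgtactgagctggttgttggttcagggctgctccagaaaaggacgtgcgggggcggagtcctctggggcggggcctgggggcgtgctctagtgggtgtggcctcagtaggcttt
All 5 windows held at least 1 such ETS core, and Itga2b held 2; of 32851 mouse promoter windows of the same length, 39.2% held one. GATA letters (AGATAA or AGATAG and likewise TGATAA or TGATAG on both strands) were found in the Gp1bb window, once, and in 26.5% of all windows. The letters TGAGTCA or TGACTCA, the core bound by NF-E2 and AP-1 factors, were in none of the 5 windows and in 4.5% of all windows. These matches describe the letters only. Of the 5 members shown, Itga2b and Tfr2 were called higher in LMPP than CLP, Gp9 and Pf4 were not, and Gp1bb was not tested. The part of these letters in the levels was not tested.

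Among the erythroid members, Car2 alone made up most of the members' summed level in LMPP. Car2 encodes carbonic anhydrase 2, an enzyme of red cells and their precursors that interconverts carbon dioxide and bicarbonate (chromosome 3, 14886273 to 14900770 on the plus strand). It was at 191.27, 178.11, 471.38 and 253.06 TPM in LMPP libraries, 17.6, 22.76, 231.12 and 141.04 TPM in CLP libraries and 13.95, 21.19, 12.51 and 14.32 TPM in GMP libraries. All LMPP libraries lay above all GMP libraries, as in 22.7% of tested genes, while CLP fell into a low batch 1 near the GMP level and a batch 2 of which replicate 1 lay within the LMPP range and replicate 2 just below it. The mean of 273 ± 136 TPM in LMPP (SD, n = 4) was above that of 97.5% of tested genes; CLP averaged 103 ± 103 TPM and GMP 15.5 ± 3.88 TPM.

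Car2 was higher in LMPP than GMP by 3.97 (SE 0.55, limma adjusted p = 0.000334), a call that held in all 25 alternative settings. It was higher in LMPP than CLP by 2.04 (SE 0.55, limma adjusted p = 0.0364) and in CLP than GMP by 1.93 (SE 0.55, limma adjusted p = 0.0227), and both depended on the batch. LMPP exceeded CLP by 3.14 in batch 1 and by 0.93 in batch 2, and CLP exceeded GMP by 0.21 in batch 1 and by 3.66 in batch 2. The change of the difference between batches was itself beyond the spread (limma interaction adjusted p = 0.0186 and 0.00284), where 8.58% and 5.48% of all tested genes passed the same interaction test. Without both CLP libraries of batch 2, CLP against GMP was 0.52 and no longer called (limma adjusted p = 0.323). The LMPP against CLP call ended without any 1 of the 4 LMPP libraries, CLP batch 1 replicate 1 or CLP batch 1 replicate 2 (limma adjusted p 0.0519 to 0.0939), and with the replicate number as a block (2.22, limma adjusted p = 0.128). The CLP against GMP call ended without either CLP library of batch 2 or either GMP library of batch 2 (limma adjusted p 0.0572 to 0.0772).

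Late red cell transcripts moved with Car2 within LMPP and between the CLP batches. The late erythroid sum was 608.02, 205.9, 28522.79 and 1203.93 TPM in LMPP, in the same order from low to high as Car2. In CLP it was 13584.49 and 2499.48 TPM in batch 2, where Car2 was high, and 557.34 and 48.68 TPM in batch 1. In GMP it was 1144.04, 1298.92, 53.26 and 194.83 TPM, with Car2 at 12.51 to 21.19 TPM. Early erythroid genes were mixed in CLP batch 2 replicate 2, the library with 141.04 TPM of Car2. There Ermap, an erythroid membrane protein, was at 4.91 TPM, above its 0.09 and 0 TPM in CLP batch 1, while Car1, the carbonic anhydrase of committed erythroid cells, was at 1.46 TPM, near its 1.52 and 1.43 TPM in CLP batch 1. The part of erythroid cells in the Car2 levels was not tested. Without the haemoglobin-rich pair, Car2 was higher in LMPP than GMP by 3.80 (limma adjusted p = 0.000783) and higher in LMPP than CLP by 2.37 (limma adjusted p = 0.0321).

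Tfr2 encodes transferrin receptor 2, an iron sensor of liver and erythroid precursors that associates with the erythropoietin receptor (chromosome 5, 137569840 to 137587481 on the plus strand). The 4 libraries of LMPP had 4.43, 4.18, 3.63 and 4.29 TPM, those of CLP 0.52, 0.26, 0.4 and 0.11 TPM and those of GMP 2.72, 2.33, 2.94 and 3.52 TPM. LMPP was above CLP in every library, as in 8.81% of tested genes. By a narrow margin it was also above GMP in every library, and 22.7% of tested genes lay above GMP in every library. Tfr2 was higher in LMPP than CLP by 1.96 (SE 0.21, limma adjusted p = 0.000319) and lower in CLP than GMP, with a difference of -1.55 (SE 0.21, limma adjusted p = 0.000304). Each call held in all 24 alternatives in which Tfr2 was tested. LMPP against GMP gave 0.41 (95% interval -0.05 to 0.87, limma adjusted p = 0.166), and under quantile normalization -0.10. The levels were low: the LMPP mean of 4.13 ± 0.350 TPM (SD, n = 4) was above that of 23.9% of tested genes.

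Nfe2 encodes the blood-specific subunit of NF-E2, the transcription factor needed for platelet release and active in erythroid cells (chromosome 15, 103248212 to 103258403 on the minus strand). It stood at 59.28, 54.45, 48.04 and 42.22 TPM in LMPP libraries, 17.72, 18.27, 16.86 and 10.19 TPM in CLP libraries and 53.68, 59.64, 46.57 and 45.94 TPM in GMP libraries. LMPP and GMP overlapped, and every CLP library lay below both. Of all tested genes, 8.81% lay above CLP in every LMPP library and 9.12% lay below GMP in every CLP library. The gene was higher in LMPP than CLP by 1.65 (SE 0.15, limma adjusted p = 0.00012) and lower in CLP than GMP, with a difference of -1.67 (SE 0.15, limma adjusted p = 1.71e-05); both calls held in all 25 alternatives. Between LMPP and GMP the difference was -0.02 with a 95% interval of -0.35 to 0.31. The within-batch differences of LMPP against CLP were 1.61 and 1.70, and those of Tfr2 1.94 and 1.99.

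**Figure D3:**
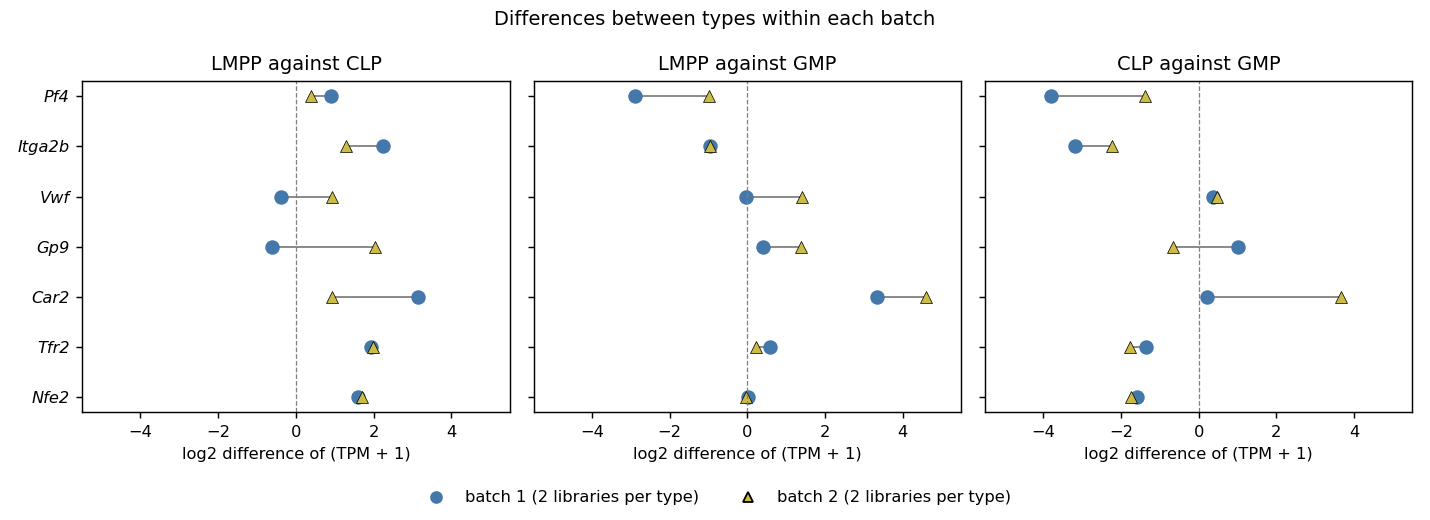
Log2 differences between types computed within batch 1 (circles) and within batch 2 (triangles), 2 libraries per type in each, for the 7 tested members. Tfr2 and Nfe2 lie close between batches, whereas Car2 differs by 2.21 in LMPP against CLP and by 3.45 in CLP against GMP.

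The summed level of the 8 members was 252.34 to 556.5 TPM across LMPP libraries, 48.71 to 270.71 TPM across CLP and 90.15 to 131.3 TPM across GMP. Car2 made up 69.9% to 84.7% of the LMPP sum, 36.1% to 89.3% of the CLP sum and 11.1% to 16.1% of the GMP sum. Without Car2 the sum was 71.52 to 85.12 TPM across LMPP libraries, 16.98 to 39.59 TPM across CLP and 75.83 to 112.12 TPM across GMP. With Nfe2 also left out, the other 6 members summed to 19.78 to 37.08 TPM across LMPP libraries, 6.79 to 22.73 TPM across CLP and 29.89 to 58.44 TPM across GMP. The LMPP range of this sum lay between those of CLP and GMP and overlapped both. In order of mean level, Pf4, Itga2b and Nfe2 ran GMP, LMPP, CLP; Vwf, Gp9 and Car2 ran LMPP, CLP, GMP; and Tfr2 ran LMPP, GMP, CLP. Neighbours that passed the test in these orders were LMPP and CLP for Itga2b, Nfe2 and Car2, CLP and GMP for Car2, and GMP and CLP for Tfr2.

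Of 12 genes listed for platelets and late megakaryocytes, 5 reached the filter (Gp1ba, Itgb3, Selp, Mmrn1 and Plek) and were above 0 in every library. Gp6, the platelet collagen receptor, and Tubb1, the tubulin of the platelet rim, were listed at 0 in all 12 libraries, Gp5 reached at most 0.25 TPM and Treml1 at most 0.33 TPM. Ppbp, a platelet chemokine, was at 7.12 TPM in LMPP batch 2 replicate 1 and at most 0.71 TPM elsewhere. Clec1b was at 2.04 TPM in the same LMPP library, 2.46 TPM in CLP batch 2 replicate 1 and at most 0.8 TPM elsewhere. Rab27b reached at most 0.38 TPM. In LMPP against CLP, 2 of the 5 tested genes were called higher and 0 lower (0 also at an unadjusted p under 0.05), beside 7.23% and 2.80% of all tested genes. In LMPP against GMP 3 were higher and 0 lower (0 unadjusted), beside 21.3% and 7.62%. The median differences were 0.45 and 1.88, beside 0.17 and 0.24 over all tested genes. Selp, the adhesion receptor P-selectin, was at 8.23 to 13.09 TPM across LMPP libraries, 0.06 to 1.2 TPM across CLP and 0.64 to 3.18 TPM across GMP, with differences of 2.94 against CLP (limma adjusted p = 0.00017) and 1.88 against GMP (limma adjusted p = 0.000648). Plek, a signalling protein of platelets and leukocytes, was at 71.08 to 111.63 TPM across LMPP libraries, 15.66 to 31.58 TPM across CLP and 10.13 to 24.28 TPM across GMP. Its differences were 1.84 against CLP (limma adjusted p = 0.00322), with 1.18 in batch 1 and 2.504 in batch 2 (limma interaction adjusted p = 0.0169), and 2.51 against GMP (limma adjusted p = 0.000115). Mmrn1, which encodes a factor V-binding protein of platelets and endothelium, was higher in LMPP than GMP by 2.2025 (limma adjusted p = 0.0359). In CLP against GMP, Mmrn1 was higher (2.41, limma adjusted p = 0.0276) and Selp lower (-1.06, limma adjusted p = 0.0184). The Mmrn1 difference was 0.36 in batch 1 and 4.46 in batch 2 (limma interaction adjusted p = 0.00667).

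The regulators shared by stem cells, megakaryocytes and erythroid cells differed for part of the list. Of 10, all tested, 3 were higher in LMPP than CLP and 0 lower (0 unadjusted), beside 7.23% and 2.80% of all tested genes. Against GMP, 3 were higher in LMPP and 0 lower (0 unadjusted), beside 21.3% and 7.62%. The median differences were 0.25 and -0.17, the second opposite in sign to the called genes, beside 0.17 and 0.24 over all tested genes. Meis1, a homeobox factor of stem cells and megakaryocytes, was higher in LMPP by 2.68 against CLP (limma adjusted p = 0.00549), with 1.37 in batch 1 and 3.98 in batch 2 (limma interaction adjusted p = 0.00969), and by 3.00 against GMP (limma adjusted p = 0.000798). Gata2, a zinc finger factor of stem cells and early megakaryocytes, was higher in LMPP than CLP by 2.37 (limma adjusted p = 0.00338), while LMPP at 7.02 to 13.79 TPM overlapped GMP at 9.3 to 17.7 TPM. Gfi1b, a repressor needed for megakaryocyte and erythroid maturation, was higher in LMPP than GMP by 1.88 (limma adjusted p = 0.00425). Tal1, the basic helix-loop-helix factor of both lineages, was higher in LMPP than CLP by 1.70 (limma adjusted p = 0.00171) and than GMP by 0.94 (limma adjusted p = 0.0141). Gata1, the main factor of committed megakaryocyte and erythroid cells, was called in no comparison, at 0 to 4.54 TPM across LMPP libraries, 0 to 2.2 TPM across CLP and 0.97 to 2.04 TPM across GMP. In CLP against GMP, 1 regulator was higher (Gfi1b, 2.25, limma adjusted p = 0.00154) and 3 were lower, beside 13.9% and 9.96% of all tested genes. Those lower were Gata2 (-2.68), Tal1 (-0.76) and Mafg (-1.65), a small Maf partner of NF-E2, at limma adjusted p of 0.000398 to 0.0426.

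Few erythroid genes outside the members passed the test, and their spread between libraries was wide. Over all tested genes, 7.23% were called higher and 2.80% lower in LMPP against CLP, and 21.3% and 7.62% in LMPP against GMP. In CLP against GMP these shares were 13.9% and 9.96%. The early erythroid list had median differences of 0.27 in LMPP against CLP, 1.29 in LMPP against GMP and 0.83 in CLP against GMP, and the late list 0.45, 1.94 and 1.33, with standard errors of single genes up to 1.87. The late medians against GMP average over opposite batches. In LMPP and in CLP, the haemoglobins, Alas2 and Slc4a1 were below GMP in batch 1 and above it in batch 2. Hba-a2 in CLP against GMP was -3.10 and 5.95 (limma interaction adjusted p = 0.0347), and in LMPP against GMP -2.42 and 5.92 (limma interaction adjusted p = 0.307). Hemgn and Bpgm were above GMP in LMPP in both batches. Of 9 early erythroid genes, 6 were tested; 0 were called in LMPP against CLP (at an unadjusted p under 0.05, Cnrip1 was higher and Tfrc lower). Cnrip1, a gene of early erythroid progenitors, was higher in LMPP than GMP (3.23, limma adjusted p = 4.09e-05) and in CLP than GMP (2.32, limma adjusted p = 0.000311). Of 8 late erythroid genes tested, Hemgn was higher in LMPP than GMP (2.25, limma adjusted p = 0.0266), and 0 were called by limma in the other comparisons; at an unadjusted p under 0.05, Hemgn was higher in LMPP than CLP and 0 differed in CLP against GMP. The late erythroid sum ranged from 205.9 to 28522.79 TPM across LMPP libraries, 48.68 to 13584.49 TPM across CLP and 53.26 to 1298.92 TPM across GMP. Among endothelial markers, 4 of 7 tested were higher in LMPP than CLP (Emcn, Tie1, Esam and Tek). Against GMP 4 were higher in LMPP (Emcn, Egfl7, Esam and Eng), and 0 were lower in either comparison, also unadjusted. The filter passed Esam through LMPP alone, since it reached at most 0.7 TPM in CLP and 0.1 TPM in GMP. Tek and Tie1 passed with no CLP library at 1 TPM (at most 0.42 and 0.58 TPM). Their entry to the test thus depended on levels outside CLP, and these counts are no independent evidence. Several of the endothelial markers are also known from stem cells. Emcn, a sialomucin of venous endothelium and stem cells, differed by 2.01 against CLP (limma adjusted p = 0.00693) and 3.17 against GMP (limma adjusted p = 0.000115). In CLP against GMP, Egfl7, Emcn and Eng were higher and Tie1 lower. None of 8 mature neutrophil genes was called by limma in any comparison (0 also at an unadjusted p under 0.05). All of them were below GMP in batch 1 and above it in batch 2, in LMPP and in CLP, so the joint fit averages opposite differences. In CLP against GMP, Camp was -4.17 and 6.42 (limma interaction adjusted p = 0.0218) and Mmp8 -1.16 and 3.06 (limma interaction adjusted p = 0.170). In LMPP against GMP, Camp was -3.54 and 6.74 (limma interaction adjusted p = 0.233). Of 5 mast and basophil genes tested, 0 were called in LMPP against CLP (0 unadjusted), Cpa3 and Ms4a2 were lower in LMPP than GMP (-3.15 and -2.86), and these with Mcpt8 were lower in CLP than GMP. The sum of the 6 mast and basophil genes was 25.02 to 103.57 TPM across LMPP, 6.12 to 195.5 TPM across CLP and 93.74 to 352.39 TPM across GMP, and the part of these cells in the members' levels was not tested.

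**Figure D4:**
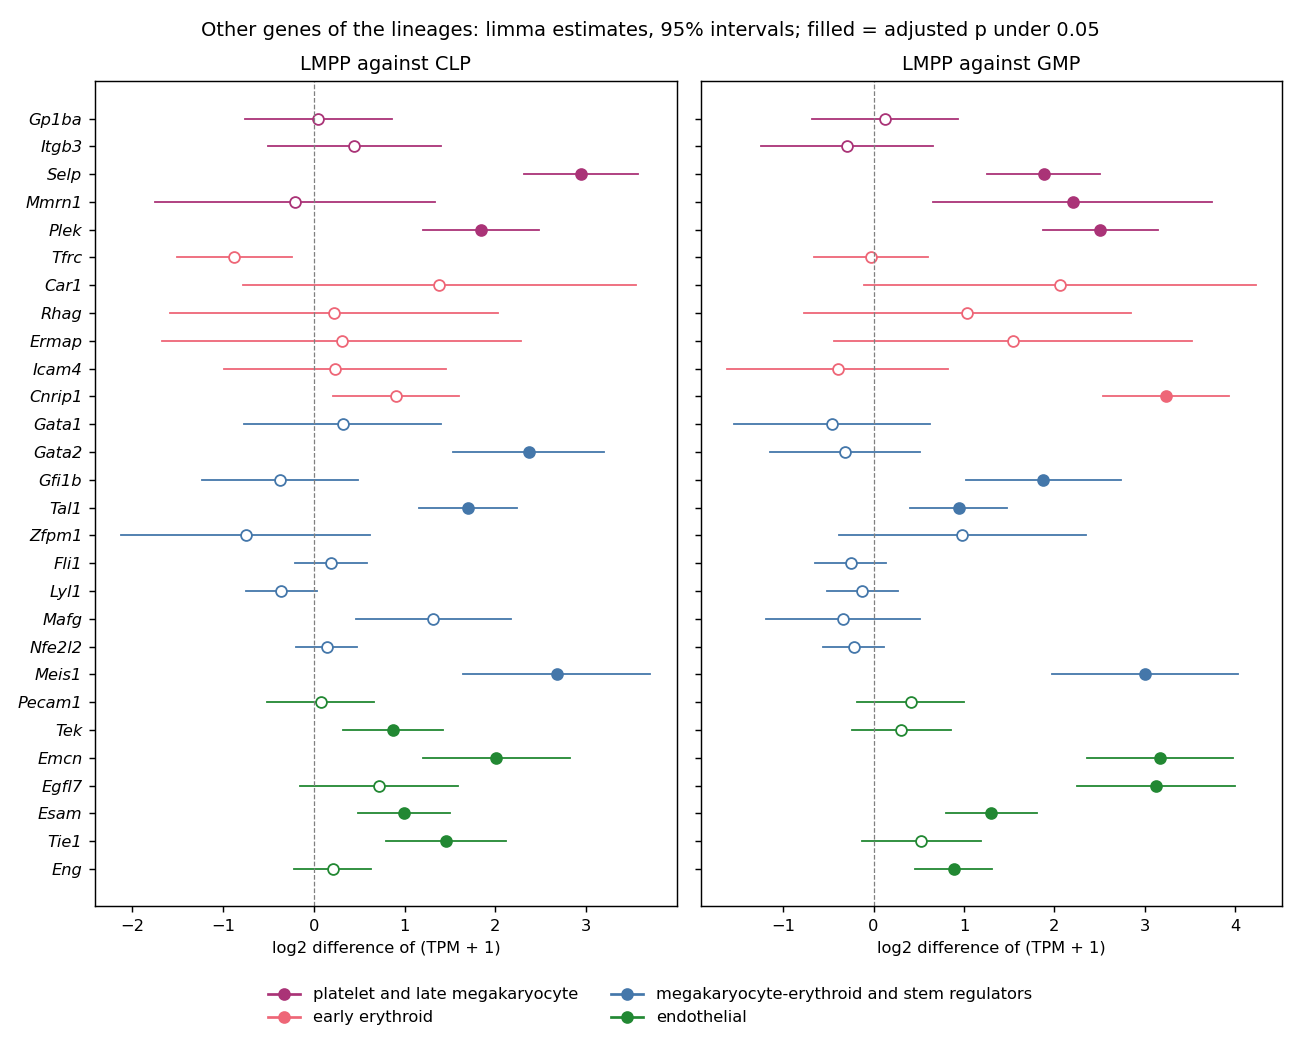
Log2 differences of LMPP against CLP and against GMP, with 95% intervals, for tested genes of 4 other lists; filled circles passed a limma adjusted p of 0.05. Meis1, Selp, Plek, Tal1, Emcn and Esam are filled on both sides, and Gata1 on neither. Esam passed the filter through LMPP alone.

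**Figure D5:**
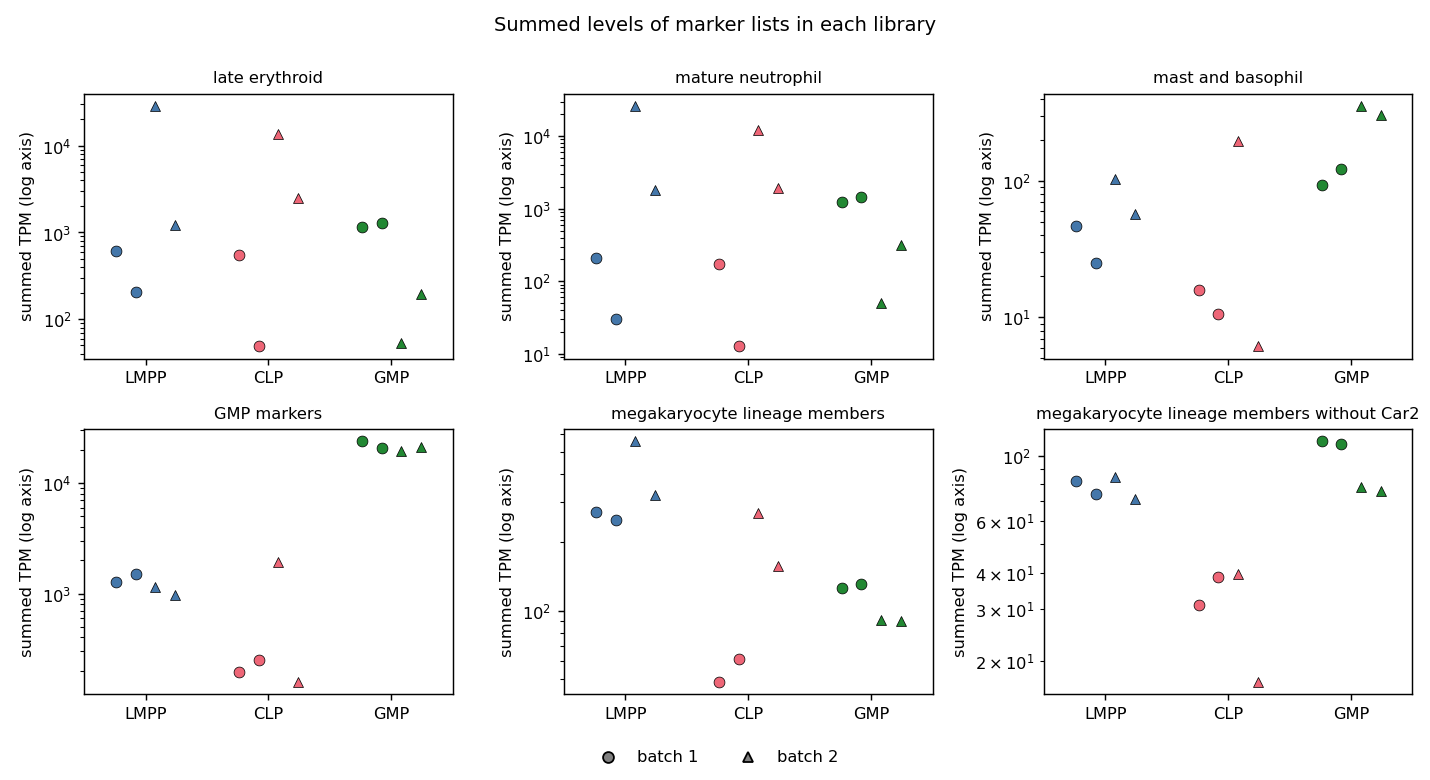
Summed TPM of 6 gene lists in each library, on log axes with separate scales; circles are batch 1 and triangles batch 2. The late erythroid and neutrophil sums peak in LMPP batch 2 replicate 1 and CLP batch 2 replicate 1, and the members' sum without Car2 separates CLP (16.98 to 39.59 TPM) from LMPP and GMP.

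Among the 7 tested members, Tfr2 and Nfe2 were the most alike over the 12 libraries (Pearson r of 0.938 on log2 values), followed by Itga2b with Nfe2 (0.761) and with Tfr2 (0.719); Car2 had r between -0.282 and 0.365 with the others. These values describe 12 libraries of 3 types, which share the differences between types and batches. Over all tested genes with a symbol, the genes most like each member were found in the same way. They were B230118H07Rik (0.994) and Tmem40 (0.964) for Nfe2, Mdga1 (0.966) and Muc13 (0.964), a membrane mucin, for Tfr2, and Ldlrad3 (0.971) and Cd63 (0.957), a tetraspanin of granule membranes, for Itga2b. For Car2 they were Samd9l (0.967) and Arhgef12 (0.956), a guanine nucleotide exchange factor. Cd63 had means of 108 ± 31.6 TPM over LMPP, 28.3 ± 39.8 TPM over CLP and 337 ± 5.97 TPM over GMP (SD, n = 4), the order seen for Itga2b. The genes nearest Gp9 were Gm17251 (0.948) and Xpc (0.926), a DNA repair protein, those nearest Pf4 were 1700037H04Rik (0.925) and Tmem53 (0.914), and those nearest Vwf were Gm17709 (0.925) and Tepsin (0.890).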

How the data were processed

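The authors deposited 1 table of TPM for 38924 Ensembl gene IDs. The submitters' processing notes name RSEM 1.2.12, Bowtie2 2.2.0, edgeR 3.10.0 and the build mm10, without order or settings, and no annotation or strand setting was found there or in the labels. RSEM shares reads among transcripts by estimate, so overlapping genes are uncertain. TPM keeps no depth, so precision rests on the 4 libraries per type. Another 17 columns matched no sample by name and were not used. Symbols and positions came from GENCODE vM21 by Ensembl ID (37607 IDs matched). The fit used limma 3.58.1 in R 4.3.3 with a variance trend and 8 residual degrees of freedom; all tests are two-sided, and the fit was tested on simulated data. Alternatives without a library kept the 12718 genes of the full fit. The members and lists were chosen with earlier results of these data known. Named genes were all members, up to 3 called genes per other list and comparison with the largest difference, and the 2 genes most like each tested member; genes behind small counts, and those used to describe single libraries, were chosen once values were known. The interaction test was added after the members' values were seen. Promoters came from RefSeq, and motif letters were chosen for this report. Some genes of these lists are not reported here and were left out of the lists' counts and sums.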

Additional observations from a re-analysis of the deposited data

Results flagged for a closer look

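In CLP, Itga2b stood at 6.97 TPM in batch 2 replicate 1, far from the other CLP libraries at 0 to 0.33 TPM. Gp1bb stood at 0.27 TPM in the same library, with 0 in the other 3. These were the 2 of 24 member and type combinations in which 1 library's gap to the nearest was large against the whole range by Dixon's criterion. Chance flags about 1 in 20. That rate does not apply to Gp1bb, where the other 3 CLP libraries were at 0 and any value above 0 would have been flagged. The Car2 difference of LMPP against CLP changed between batches, by -2.21 (batch 2 minus batch 1, SE 0.45, limma interaction adjusted p = 0.0186), and that of CLP against GMP by 3.45 (SE 0.45, limma interaction adjusted p = 0.00284). Both share the CLP libraries of batch 2, where Car2 averaged 186 TPM, against 20.2 TPM in batch 1; LMPP averaged 362 TPM in batch 2 and 185 TPM in batch 1.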

How the results depend on the processing

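Of 519 member values under the alternatives, 443 kept direction and side of the threshold. For LMPP against CLP, 4 members were called higher; 2 were with no filter, median-ratio scaling, no batch term or batch 2 alone, and 2 to 4 without single libraries. With batch and replicate number as a block the count was also 2: Nfe2 and Tfr2 stayed called. Over all tested genes, deviations of same-numbered libraries from their type and batch means had r of -0.106 to 0.169 over 6 pairs. The highest was that of LMPP and CLP in batch 2 replicate 1. Each mean rests on 2 libraries, so these values cannot decide whether the numbers pair the samples. For LMPP against GMP, 1 was called higher (2 with only the 2 types, 1 to 2 without single libraries). None was lower in the fit used; 2 were under quantile normalization, with only the 2 types, without both CLP libraries of batch 2 or without the haemoglobin-rich pair (Itga2b and Pf4), 1 in batch 1 alone, and 0 to 2 without single libraries. For CLP against GMP, 1 was called higher (0 with no filter, no batch term, only the 2 types, batch 1 alone, without both CLP libraries of batch 2 or without the haemoglobin-rich pair, and 0 to 1 without single libraries) and 4 lower (2 in batch 2 alone, 3 to 4 without single libraries). The cause was not tested.

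Sign changes fell on differences that were not called in the fit used; of these, Vwf in LMPP against GMP was called without LMPP batch 1 replicate 2. Gp9 in CLP against GMP was -0.39 with a pseudocount of 0.1, -0.66 in batch 2 alone and -0.39 to 0.70 without single libraries. Gp9 in LMPP against CLP was -0.62 in batch 1 alone and -0.37 with both CLP libraries of batch 2 left out. Vwf in LMPP against CLP was -0.39 in batch 1 alone, -0.0349 with both CLP libraries of batch 2 left out and -0.0078 with the block, and in LMPP against GMP -0.0267 in batch 1 alone. Pf4 in LMPP against CLP was -0.009 to 1.38 without single libraries. Nfe2 in LMPP against GMP was 0.0058 in batch 1 alone and -0.0554 to 0.0149 without single libraries. Tfr2 in LMPP against GMP was -0.10 under quantile normalization.

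Median-ratio scaling moved the median of all genes by -0.15, -0.24 and -0.09 in LMPP against CLP, LMPP against GMP and CLP against GMP. The share of called genes that were higher was 72.1%, 73.6% and 58.3%, and 47.3%, 46.0% and 45.7% after that scaling (51.6%, 48.3% and 47.3% under quantile normalization). All genes called higher and lower in LMPP against CLP numbered 920 and 356; median-ratio scaling gave 544 and 605, the block 155 and 57, only the 2 types 370 and 166, no batch term 484 and 125, and batch 2 alone 574 and 609; quantile normalization gave 595 lower, and the fit without the haemoglobin-rich pair 171 lower. LMPP against GMP had 2707 and 969, with 1658 and 1943 under median-ratio scaling, 1552 and 1659 under quantile normalization, 1619 and 595 under the block and 802 and 324 in batch 2 alone; 540 were lower with no batch term, 1454 with only the 2 types and 1478 without both CLP libraries of batch 2. CLP against GMP had 1773 and 1267, with 1056 and 628 in batch 2 alone and 1079 higher with no batch term. Without single libraries, LMPP against CLP gave 460 to 990 higher and 195 to 496 lower.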

Other observations

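Some other genes of the megakaryocyte programme differed between the CLP batches as Car2 did. Mmrn1 was at 25.25 and 22.95 TPM in CLP batch 2 and at 2.22 and 0.14 TPM in CLP batch 1, while LMPP held 4.15 to 6.22 TPM and GMP 0.06 to 0.67 TPM. Zfpm1, which encodes the GATA partner FOG1, was at 25.33 and 22.87 TPM in CLP batch 2 and at 2.86 and 1.42 TPM in CLP batch 1, while LMPP held 1.76 to 5.83 TPM and GMP 1.01 to 2.45 TPM. The change of the LMPP against CLP difference between batches was -3.67 for Mmrn1 (limma interaction adjusted p = 0.0105) and -3.63 for Zfpm1 (limma interaction adjusted p = 0.0102). Others went the opposite way. Meis1 was at 6.18 and 3.72 TPM in CLP batch 2 and 16.95 and 28.3 TPM in CLP batch 1 (change of 2.61, limma interaction adjusted p = 0.00969). Plek was at 21.74 and 15.66 TPM in CLP batch 2 and 30.95 and 31.58 TPM in CLP batch 1 (change of 1.33, limma interaction adjusted p = 0.0169). Gfi1b was at 6.58 and 9.96 TPM in CLP batch 2 and 19.72 and 21.79 TPM in CLP batch 1 (change of 1.85, limma interaction adjusted p = 0.0486). Mmrn1 and Zfpm1 were high in both CLP libraries of batch 2. In its replicate 2 the late erythroid sum was 2499.48 TPM and the mature neutrophil sum 1952.11 TPM, above CLP batch 1, and the mast and basophil sum 6.12 TPM and the GMP marker sum 158.39 TPM, below it. The part of these cells in the result was not tested.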
